A study of Mus musculus with 8 samples.

Results

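The genes described here are 9 members of the erythropoietin receptor pathway, taken by symbol from a table of 24454 genes. They are the receptor gene Epor, the kinase gene Jak2, the transcription factor genes Stat5a and Stat5b, and Cish, Socs2, Socs3, Pim1 and Sh2b3, which act downstream of the receptor or restrain it. All 9 were in the table and all 9 passed the filter on low counts, which left 12136 genes for testing. RNA was read from 8 sorted cell pools of the E11.5 mouse yolk sac, the extraembryonic tissue in which the first blood cells and vessels form. Every pool came from miR144/451+/GFP embryos on a C57BL/6 background, in which green fluorescent protein (GFP) marks 1 allele of the miR-144/451 locus, so no pool is from wild-type cells. Cells were sorted on GFP and on an antibody to VE-Cadherin, an endothelial adhesion protein. Double positive pools (replicates 7 and 8, 24 cells each) carried both marks. Erythroid pools (replicates 4, 5 and 6, 25 cells each) were VE-Cadherin negative and GFP positive. Endothelial pools (replicates 1, 2 and 3, 25 cells each) were VE-Cadherin positive and GFP negative. The labels do not say whether pools came from separate embryos, so p-values cover the spread between pools, which may be technical.

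Erythropoietin is the hormone that sustains red cell precursors. It binds a receptor homodimer, the bound kinase JAK2 then phosphorylates the receptor tails, and STAT5A and STAT5B dock there, are phosphorylated and move to the nucleus. STAT5 switches on survival and growth genes, among them Pim1, and also Cish, Socs2 and Socs3, whose products block receptor signalling in a feedback loop. SH2B3 (LNK) is an adaptor that binds JAK2 and the receptor and dampens the signal in blood cells.

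Promoter sequences of 3 members are shown because they hold motifs of the factors named above or of erythroid factors. RefSeq promoters (GRCm38.p6, 250 bases before to 50 after a start site) were found for 8 of the 9 members, in 11 windows. Each was searched on both strands for the STAT motif TTCNNNGAA, which reads the same on either strand, the GATA motif AGATAA and the CACC-box CCACCC, which KLF factors can bind. The 3 motifs do not overlap each other in the sequences shown, where capitals mark every match. The Epor window is chr9:21963577-21963826 on the minus strand, the Socs3 window chr11:117969367-117969616 on the minus strand, and the Cish stretch chr9:107296654-107296683 on the plus strand, which runs across the start site.
Epor: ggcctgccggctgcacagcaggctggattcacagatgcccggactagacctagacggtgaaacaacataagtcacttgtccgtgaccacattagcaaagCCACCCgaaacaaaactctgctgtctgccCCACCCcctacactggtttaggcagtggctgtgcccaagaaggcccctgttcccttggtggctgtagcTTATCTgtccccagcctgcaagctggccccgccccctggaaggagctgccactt
Socs3: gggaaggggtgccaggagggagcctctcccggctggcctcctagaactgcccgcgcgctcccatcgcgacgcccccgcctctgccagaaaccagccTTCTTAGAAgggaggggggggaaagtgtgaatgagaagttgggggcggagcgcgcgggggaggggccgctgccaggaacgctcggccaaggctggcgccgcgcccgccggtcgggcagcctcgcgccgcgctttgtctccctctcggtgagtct
Cish: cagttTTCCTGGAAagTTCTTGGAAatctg

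The Epor window held a GATA motif, read as TTATCT on the gene's strand, 54 bases before the start site, and CACC-boxes 151 and 122 bases before it. No other member window held the GATA motif, which was in 11.2% of 32851 mouse promoter windows of the same length. Sh2b3 was the other member with a CACC-box, which was in 31.5% of all windows. The STAT motif was in 8.30% of windows and in those of 2 members. Cish held it at bases 1 and 12 counted from the start site, and Socs3 held it 154 bases before the start site. These matches describe letters in a window, and binding was not measured.

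The libraries held 3723128 to 7618444 counts each, with 4637930 and 4818074 in double positive, 5291843 to 7618444 in erythroid and 3723128 to 4439165 in endothelial pools. Counts of the 9 members together came to 484 to 593 per double positive, 1133 to 1458 per erythroid and 816 to 921 per endothelial library. Single members held from 2 reads, for Socs3 in erythroid replicate 6, to 818 reads, for Epor in erythroid replicate 4. Levels are given in CPM, counts scaled to a common library size after trimmed-mean (TMM) normalisation. Globin genes took 54.5% to 56.5% of erythroid counts. Results were also taken with globin genes removed before TMM, and with scaling by library size alone. Library size alone shifted the all-gene median (log2) by −1.54 in erythroid relative to endothelial pools. It gave 420 genes higher and 7270 lower, against 1745 and 3232 under TMM. In double positive relative to endothelial pools it shifted by −0.63, with 1118 higher and 1901 lower, against 1776 and 840 under TMM. In double positive relative to erythroid pools it shifted by 0.903, with 5760 higher and 473 lower, against 3820 and 1283 under TMM. Cdh5, the gene of the sorted protein, was not detected in erythroid pools, and Klf1, which was not part of the sort, was not detected in endothelial pools. Cdh5, which encodes VE-Cadherin, was at 51.0 ± 7.19 CPM in double positive (SD, n = 2), 0 in erythroid and 209 ± 32.0 CPM in endothelial pools (SD, n = 3 each). Klf1, an erythroid transcription factor gene, was at 28.8 ± 4.51, 764 ± 13.9 and 0 CPM in the same order. Markers of other cell types were read as well. A list of 16 visceral endoderm genes, led by Afp, summed to 99582 and 102099 CPM in double positive, 10.1 to 22.5 in erythroid and 52.6 to 159 in endothelial pools. A list of 14 macrophage genes summed to 307 and 256 CPM in double positive replicates 7 and 8, to 0 in all erythroid pools and to 1186, 3113 and 1337 CPM in endothelial replicates 1, 2 and 3, with 7 of the 14 genes detected in replicate 7 and all 14 in replicate 8 and in each endothelial pool. Mesenchyme genes (9 listed) summed to 321 to 348 CPM in double positive, 0 to 0.326 in erythroid and 3.39 to 6.52 CPM in endothelial pools. Megakaryocyte genes (9 listed) summed to 10.3 to 76.8, 38.5 to 53.6 and 644 to 999 CPM in the same order. Of the 14 macrophage genes, Fcgr3 and Mrc1 led in double positive pools, and the sums there rested mainly on them. They stood at 150 ± 66.6 and 78.8 ± 17.9 CPM (SD, n = 2). Adgre1, Spi1, C1qa and Cd14 had means of 1.63 CPM or less there. Mrc1 also led in endothelial pools, at 651 ± 142 CPM, where Fcgr3 stood at 134 ± 103 CPM (SD, n = 3). By edgeR 10 of the 14 were lower in double positive than in endothelial pools, and Fcgr3 was not called. The part of macrophages or of the other cell types in the levels of the 9 members was not tested.

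**Figure D1:**
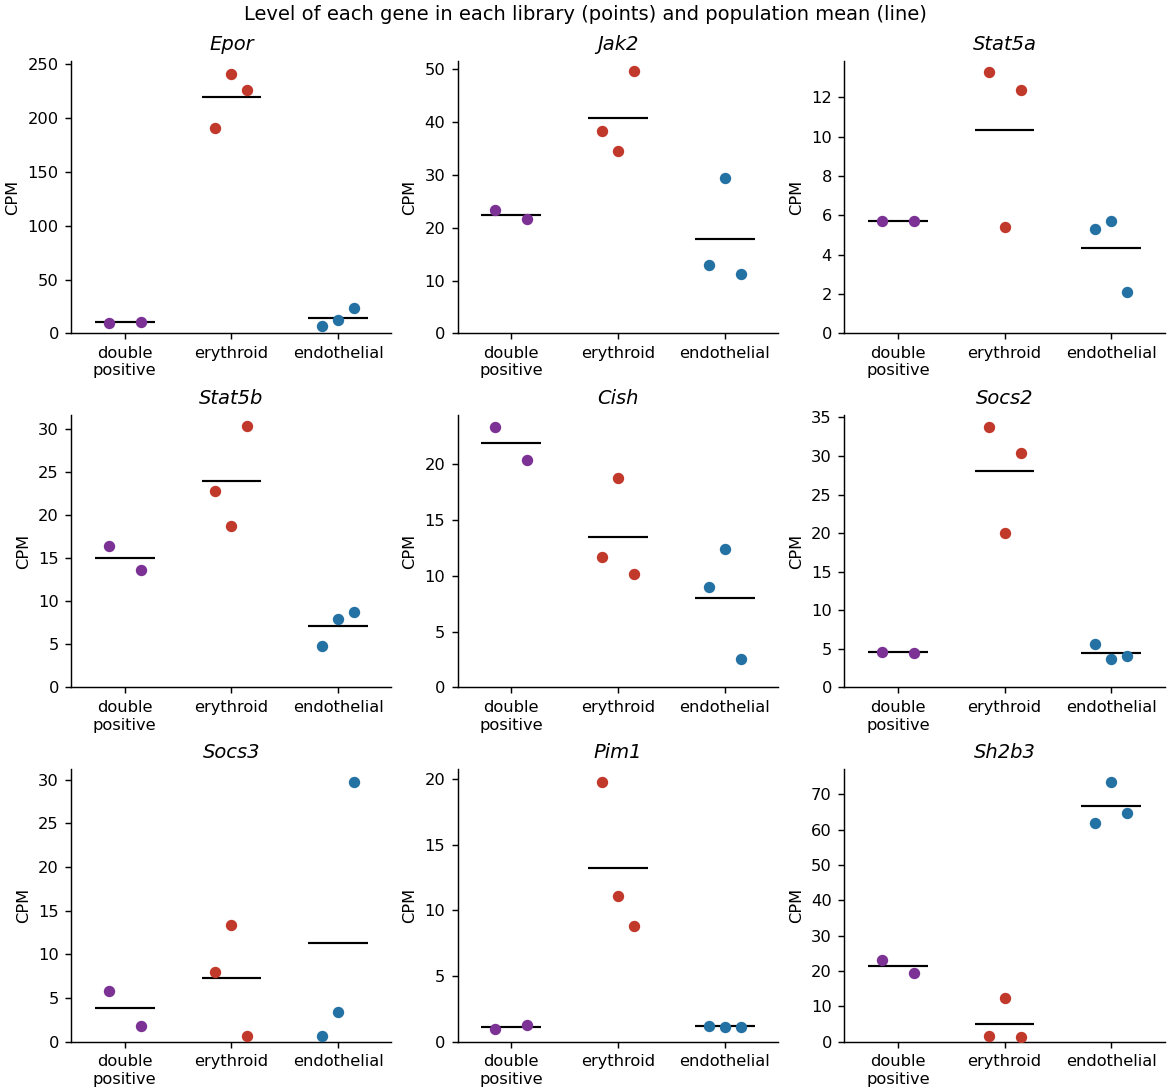
Level of each of the 9 genes in every library, in TMM-scaled CPM on a linear axis from 0 that differs between panels. Points are libraries and lines are population means. Epor lies between 191 and 241 CPM in erythroid pools, above all other pools, and Sh2b3 between 61.9 and 73.5 CPM in endothelial pools, above all other pools.

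In erythroid against endothelial pools the receptor, its kinase and several members downstream were higher and an adaptor was lower. Epor, Jak2, Stat5b, Socs2 and Pim1 rose in erythroid pools, by 2.29-fold (Jak2) to 15.4-fold (Epor), while Sh2b3 fell by 3.73 on the log2 scale. In all, 6 of 9 members were called, against 41% of all tested genes. Of these 5 were higher, against a background of 14.4%, and 1 was lower, against 26.6%. Libraries did not overlap for the same 6 members, against 50.8% of tested genes. The median log2 difference of the 9 was 1.24, against −0.36 for all tested genes. With globin genes removed, Epor, Stat5b, Socs2 and Pim1 remained higher and Sh2b3 lower, and the Jak2 call ended (adjusted p = 0.068, edgeR). Under library size alone Epor remained higher and Sh2b3 lower, and the other 4 calls ended. Since pools are read in bulk, fewer cells of a type and less RNA per cell cannot be told apart.

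The receptor came first in this comparison. Epor (ENSMUSG00000006235.6, chromosome 9, 21958897 to 21963506, minus strand, GRCm38) had 191, 241 and 226 CPM in erythroid replicates 4, 5 and 6, against 6.48, 12.9 and 23.6 CPM in endothelial replicates 1, 2 and 3. The lowest erythroid library was far above the highest endothelial library. Its log2 difference was 3.94 (SE 0.42, Benjamini-Hochberg adjusted p = 0.000122, quasi-likelihood test of edgeR). Every endothelial pool held Epor reads too, 49 to 146 per library, or 6.48 to 23.6 CPM. In these pools the 14 erythroid marker genes together summed to 15.3 to 24.7 CPM, against 956005 CPM or more in every erythroid pool. The part of erythroid cells in endothelial Epor was not tested.

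Jak2, the kinase held by the receptor (chromosome 19, 29251828 to 29313080, plus strand), had 38.2, 34.6 and 49.6 CPM in erythroid replicates 4, 5 and 6, against 13.0, 29.3 and 11.1 CPM in endothelial replicates 1, 2 and 3. All erythroid libraries were above all endothelial libraries, and replicate 2, which also had the highest macrophage sum, was the highest endothelial library. Endothelial replicates 1 and 3 had macrophage sums of 1186 and 1337 CPM, and the part of macrophages in Jak2 was not tested. The log2 difference of 1.195 (SE 0.41, adjusted p = 0.0457, edgeR) was close to the threshold. The call ended or turned in 13 of 16 alternatives. It held with limma-voom, at a minimum count of 50 and without endothelial replicate 2. It ended without any other single library, and with DESeq2 (adjusted p = 0.0602), which called 5 members in all, and under library size alone the difference turned to −0.34. Over the alternatives the adjusted p ran from 0.00606 to 0.505.

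Stat5b (chromosome 11, 100780731 to 100850724, minus strand) had 22.8, 18.7 and 30.3 CPM in erythroid replicates 4, 5 and 6, against 4.76, 7.98 and 8.72 CPM in endothelial replicates 1, 2 and 3. The groups did not overlap, and the log2 difference was 1.74 (SE 0.44, adjusted p = 0.0111, edgeR), falling to 0.21 with library size alone. Stat5a (chromosome 11, 100859351 to 100885169, plus strand) had 13.3, 5.39 and 12.4 CPM in erythroid against 5.29, 5.70 and 2.10 CPM in endothelial pools. These ranges overlapped at erythroid replicate 5, and the log2 difference of 1.24 (SE 0.66, adjusted p = 0.167, edgeR) did not pass. Stat5b and Stat5a are neighbours on opposite strands, 8626 bases apart, and Stat5a overlaps Stat3 on the other strand by 72 bases. In GENCODE transcripts 8.21% of the distinct 50-base stretches of Stat5a also occur in Stat5b, and 10.98% of those of Stat5b occur in Stat5a. A read lying wholly inside such a stretch cannot be assigned by its own sequence. The sources used here do not give the read length.

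The kinase gene Pim1 and the feedback gene Socs2 were the STAT5-responsive members that rose. Pim1, a survival kinase (chromosome 17, 29490753 to 29496112, plus strand), had 19.8, 11.1 and 8.80 CPM in erythroid replicates 4, 5 and 6, against 1.19, 1.14 and 1.13 CPM in endothelial replicates 1, 2 and 3. Its endothelial libraries held 7 to 9 reads each, and all erythroid libraries were higher, by 3.49 on the log2 scale (SE 0.70, adjusted p = 0.00367, edgeR). Socs2, which binds phosphorylated cytokine receptors and targets them for ubiquitination (chromosome 10, 95385362 to 95417180, minus strand), had 33.8, 19.99 and 30.3 CPM in erythroid replicates 4, 5 and 6. In endothelial replicates 1, 2 and 3 it had 5.69, 3.75 and 4.04 CPM, below every erythroid library. The log2 difference was 2.63 (SE 0.46, adjusted p = 0.00183, edgeR). Under library size alone both calls ended, at adjusted p = 0.0882 for Socs2 (1.04e-06 to 0.0882 over 16 alternatives) and 0.0512 for Pim1 (1.91e-05 to 0.0512 over 15).

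The feedback genes Cish and Socs3 did not pass. Cish, the SH2-domain protein first known as an inhibitor of STAT5 signalling (chromosome 9, 107296026 to 107302784, plus strand), had 11.7, 18.7 and 10.1 CPM in erythroid replicates 4, 5 and 6, against 8.99, 12.4 and 2.58 CPM in endothelial replicates 1, 2 and 3. The groups overlapped, and the log2 difference of 0.75 (SE 0.601, adjusted p = 0.356, edgeR) did not pass and turned to −0.79 with library size alone. Socs3, which binds JAK kinases and blocks their activity (chromosome 11, 117966079 to 117970047, minus strand), had 7.92, 13.3 and 0.652 CPM in erythroid replicates 4, 5 and 6, against 0.661, 3.42 and 29.7 CPM in endothelial replicates 1, 2 and 3. Socs3 spread more between pools of 1 population than between populations, with 5 to 184 reads per endothelial library and 2 to 42 per erythroid library. Its log2 difference was −0.62 (SE 1.32, adjusted p = 0.768, edgeR), and 1.83 (adjusted p = 0.339, range over 15 alternatives 0.196 to 0.987) without endothelial replicate 3, the library that also held the most Epor among the endothelial pools.

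Sh2b3, the JAK2-binding adaptor (chromosome 5, 121815488 to 121837646, minus strand), was the member that was lower in red cells. It had 1.63, 12.4 and 1.30 CPM in erythroid replicates 4, 5 and 6, against 61.9, 73.5 and 64.6 CPM in endothelial replicates 1, 2 and 3. Erythroid replicate 5 stood above the other 2 erythroid pools and still below every endothelial pool. The log2 difference was −3.73 (SE 0.73, adjusted p = 0.00345, edgeR), and −5.51 without erythroid replicate 5. Endothelial replicate 2 was the highest in both Sh2b3 and the macrophage sum, whose part in Sh2b3 was not tested. The annotated Sh2b3 locus overlaps Atxn2 by 1006 bases on the other strand. Cish overlaps Gm17041 and Gm17040 by 1459 and 1167 bases, and Pim1 overlaps Gm26885 by 1173 bases, also on the other strand. The sources used here do not give the counting strand, so reads of these pairs may not be told apart.

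**Figure D2:**
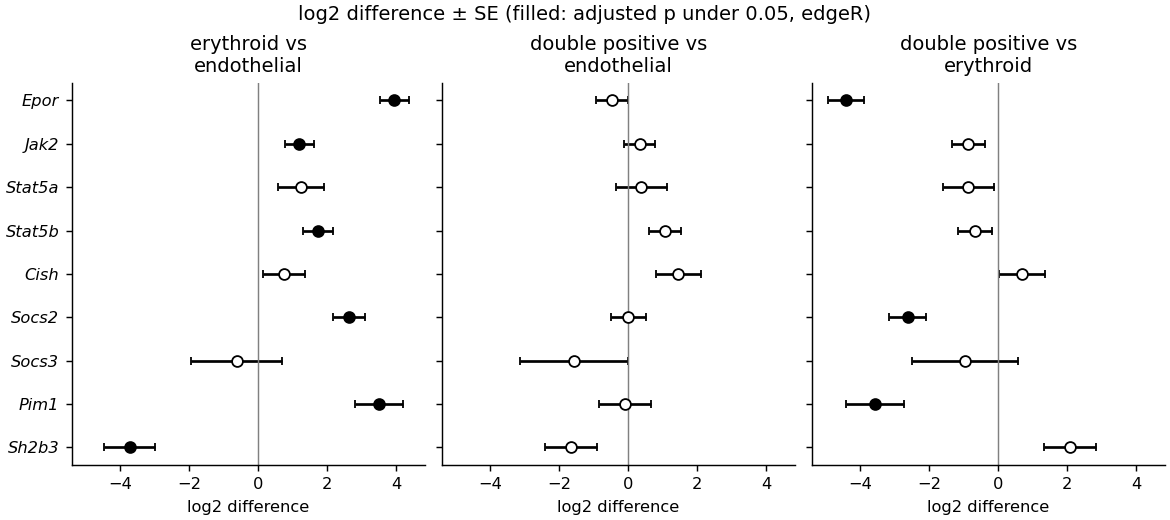
log2 differences with their standard errors for each gene in the 3 comparisons, first named population over the second. Filled points passed an adjusted p under 0.05 by edgeR. There are 6 of them in erythroid over endothelial, 0 in double positive over endothelial and 3 in double positive over erythroid.

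In double positive pools the receptor transcript stood near the endothelial level and far below the erythroid level. Against erythroid pools, Epor, Socs2 and Pim1 fell, 3 of 9 members, against a background of 10.6% of tested genes lower. None of the 9 was called higher by edgeR under TMM at the adjusted threshold, against 31.5% of tested genes. At an unadjusted p under 0.05 the count of higher members was 1, which was Sh2b3, and it was 1 with DESeq2 and 1 with limma-voom. By edgeR Sh2b3 also passed under relative log expression (RLE) factors (log2 difference 2.13, adjusted p = 0.0493). It passed under library size alone (3.00, adjusted p = 0.0101) and not with globin genes removed (2.09, adjusted p = 0.0519). The median log2 difference of the 9 was −0.86, against 0.71 for all tested genes, and it was 0.052 under library size alone, where the median of all genes was 1.61.

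Epor had 10.1 and 10.4 CPM in double positive replicates 7 and 8, from 53 and 51 reads, against 191 to 241 CPM in erythroid pools. It was 21.3-fold lower (log2 difference −4.41, SE 0.52, adjusted p = 0.000258, edgeR). For comparison, 14 erythroid marker genes, which include Klf1 and Gata1, had a median log2 difference of −4.11 in the same comparison, and all 14 were lower. Socs2 had 4.59 and 4.48 CPM in double positive replicates 7 and 8, against 19.99 to 33.8 CPM in erythroid pools, a log2 difference of −2.62 (SE 0.55, adjusted p = 0.00505, edgeR). Pim1 had 0.956 and 1.22 CPM in double positive replicates 7 and 8, from 5 and 6 reads, against 8.80 to 19.8 CPM in erythroid pools, with no overlap for any of these 3 genes. Its log2 difference was −3.58 (SE 0.84, adjusted p = 0.00907, edgeR). With 1 double positive library left, the Socs2 and Pim1 calls ended, at adjusted p = 0.0548 and 0.108 without replicate 7 and 0.0577 and 0.0898 without replicate 8. Over the alternatives the adjusted p ran from 1.04e-05 to 0.0577 for Socs2 and from 0.000141 to 0.108 for Pim1.

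The other 6 members did not pass against erythroid pools. Jak2 had 23.3 and 21.6 CPM in double positive replicates 7 and 8, below the erythroid range of 34.6 to 49.6 CPM, with a log2 difference of −0.86 (SE 0.47, adjusted p = 0.173, edgeR). Stat5b had 16.4 and 13.7 CPM in double positive pools, below the erythroid range of 18.7 to 30.3 CPM, with a log2 difference of −0.67 (SE 0.48, adjusted p = 0.296). Stat5a was nearly the same in both double positive pools, at 5.73 and 5.71 CPM, inside the erythroid range of 5.39 to 13.3 CPM. Cish had 23.3 and 20.4 CPM in double positive pools, above the erythroid range of 10.1 to 18.7 CPM, and the log2 difference of 0.695 (SE 0.66, adjusted p = 0.429) did not pass. Sh2b3 had 23.1 and 19.4 CPM in double positive pools, above the erythroid range of 1.30 to 12.4 CPM. Its log2 difference of 2.08 (SE 0.76, adjusted p = 0.0536, edgeR) missed the threshold and passed without erythroid replicate 5, at 3.83 with adjusted p = 0.000281. It also passed with DESeq2 (adjusted p = 0.0244) and limma-voom (0.0156), and the range over 16 alternatives was 0.000281 to 0.176. Socs3 had 5.73 and 1.83 CPM in double positive pools, within the erythroid spread. Libraries did not overlap for 7 of 9 members, against 67.5% of tested genes. Of these 2 were higher, against 47.5%, and 5 were lower, against 20%.

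Against endothelial pools no member of the 9 was called in double positive pools by edgeR, with a background of 21.6% of tested genes called, 14.6% higher and 6.92% lower. At an unadjusted p under 0.05 there was 1, Stat5b, while DESeq2 called 0 and limma-voom 1, Sh2b3. Stat5b had 16.4 and 13.7 CPM in double positive, against 4.76 to 8.72 CPM in endothelial pools (log2 difference 1.07, SE 0.47, adjusted p = 0.148). Cish had 23.3 and 20.4 CPM in double positive, against 2.58 to 12.4 CPM in endothelial pools (log2 difference 1.45, SE 0.65, adjusted p = 0.160). Both genes lay above every endothelial library without passing the test. Libraries did not overlap for 4 of 9 members, against 57.5% of tested genes, with 3 higher (Stat5a was the other), against 32.9%, and 1 lower, against 24.6%. Sh2b3 had 23.1 and 19.4 CPM in double positive, against 61.9 to 73.5 CPM in endothelial pools (log2 difference −1.65, SE 0.75, adjusted p = 0.165). It passed without erythroid replicate 5 (−1.67, adjusted p = 0.0058), with only these 2 populations in the fit (−1.66, adjusted p = 0.00288) and with limma-voom (−1.64, adjusted p = 0.0169), with a range of 0.00288 to 0.505 over 16 alternatives. The 17 endothelial markers had a median log2 difference of −2.81 in the same comparison, with 15 lower. Epor in double positive pools, at 10.1 and 10.4 CPM, lay inside the endothelial range of 6.48 to 23.6 CPM (log2 difference −0.47, SE 0.46, adjusted p = 0.539), and it was 0.083 without endothelial replicate 3. Socs2 and Pim1 also lay at endothelial levels, with log2 differences of 0.012 (SE 0.504) and −0.083 (SE 0.76). A difference that misses the threshold with 2 and 3 pools does not show equal levels. No member was above or below both single positive populations in double positive pools by edgeR at the adjusted or the unadjusted threshold, by DESeq2 or by limma-voom, against 10.9% of tested genes by edgeR.

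Ratios of reads of a pair of genes within a library do not depend on scaling between libraries, and were taken for Stat5a to Stat5b and for Jak2 to Epor.

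**Figure D3:**
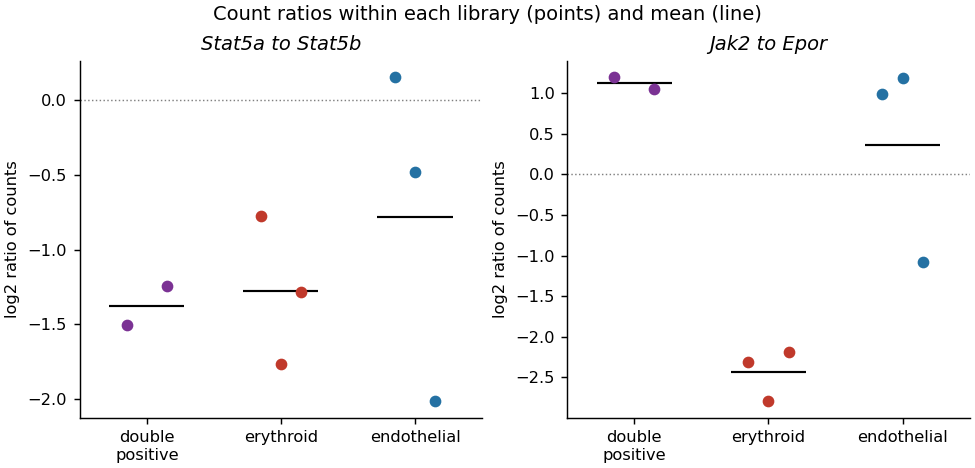
log2 ratios of Stat5a to Stat5b counts and of Jak2 to Epor counts in every library, after adding 0.5 counts to each gene. Points are libraries, lines are population means and the dotted line marks equal counts. The Jak2 to Epor ratio of every erythroid library, at −2.80 to −2.19, is below that of every other library.

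In double positive replicates 7 and 8 there were 2.29 and 2.07 Jak2 reads per Epor read. In erythroid replicates 4, 5 and 6 there were 0.201, 0.144 and 0.22, and in endothelial replicates 1, 2 and 3 there were 1.99, 2.27 and 0.474. The mean log2 ratio was 1.12 ± 0.104 in double positive (SD, n = 2), −2.43 ± 0.32 in erythroid (SD, n = 3) and 0.37 ± 1.25 in endothelial pools (SD, n = 3). Erythroid pools lay 2.80 below endothelial pools on the log2 scale, and double positive pools lay 3.55 above erythroid pools. Each gave p = 0.1 by an exact two-sided permutation test, the smallest this design allows, and 0.15 adjusted over 3 pairs. Double positive and endothelial pools differed by 0.755 (exact permutation p = 0.6), by 0.034 without endothelial replicate 3 and by 1.16 without endothelial replicate 2. The Stat5a to Stat5b ratio overlapped between all populations, with mean log2 ratios of −1.37 ± 0.18 in double positive (SD, n = 2), −1.27 ± 0.49 in erythroid (SD, n = 3) and −0.78 ± 1.11 in endothelial pools (SD, n = 3), and exact permutation p = 0.5 to 0.8. Stat5b had more reads than Stat5a in 7 of 8 libraries, endothelial replicate 1 being the exception with 36 against 40 reads.

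Levels were set between genes only per kilobase (kb) of the longest GENCODE coding transcript, from 1761 bases for Epor to 5213 bases for Stat5b.

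**Figure D4:**
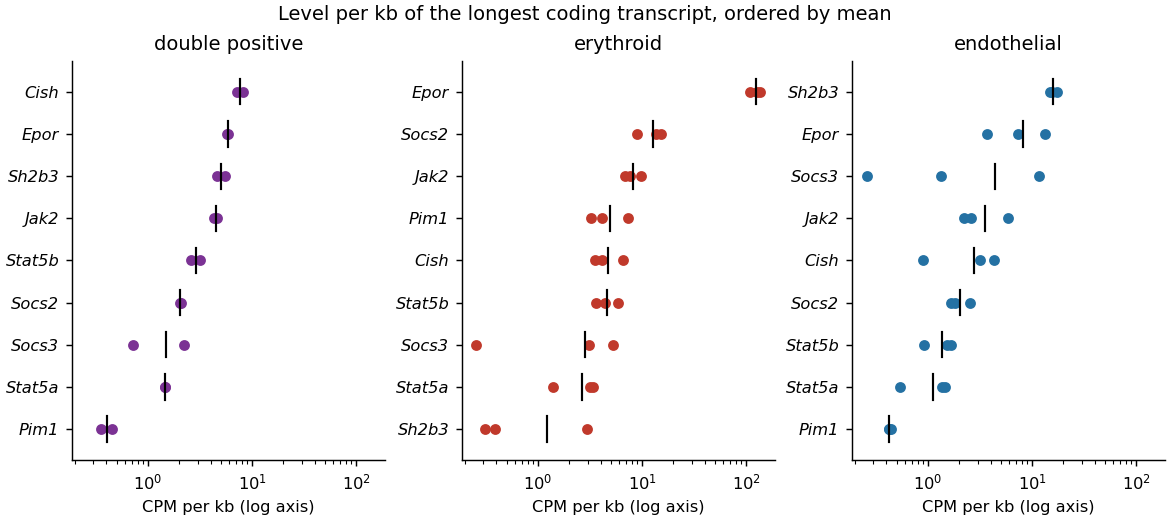
CPM per kb for each gene in the 3 populations on a log axis, ordered by mean within each population. Points are libraries and black ticks are means. Epor leads in erythroid pools at 124.5 CPM per kb and Sh2b3 leads in endothelial pools at 15.9 CPM per kb.

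In double positive pools Cish led at 7.67 ± 0.73 CPM per kb (SD, n = 2), followed by Epor at 5.83 ± 0.105, Sh2b3 at 5.06 ± 0.64 and Jak2 at 4.47 ± 0.24. Sh2b3 and Jak2 overlapped, as did Socs2 with Socs3 and Socs3 with Stat5a, and Pim1 was last at 0.404 ± 0.07. In erythroid pools Epor stood at 124.5 ± 14.7 CPM per kb (SD, n = 3), above Socs2 at 12.6 ± 3.23 and Jak2 at 8.11 ± 1.55. Below Epor every neighbour in the erythroid order overlapped the next, down to Sh2b3 at 1.22 ± 1.501. In endothelial pools Sh2b3 led at 15.9 ± 1.45 CPM per kb (SD, n = 3), followed by Epor at 8.13 ± 4.91 and, with a spread larger than its mean, Socs3 at 4.42 ± 6.29. Pim1 was last there at 0.428 ± 0.012. Transcript lengths are those of the annotation, and which isoforms these cells use was not measured.

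The wider pathway was read through 6 lists of 84 genes, all of them in the table. Their counts in erythroid against endothelial pools stand beside 14.4% of all tested genes higher and 26.6% lower, with a median log2 difference of −0.36. Those in double positive against erythroid pools stand beside 31.5% higher and 10.6% lower. Counts under library size alone are given for each list where they differ by over 1.5 times.

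**Figure D5:**
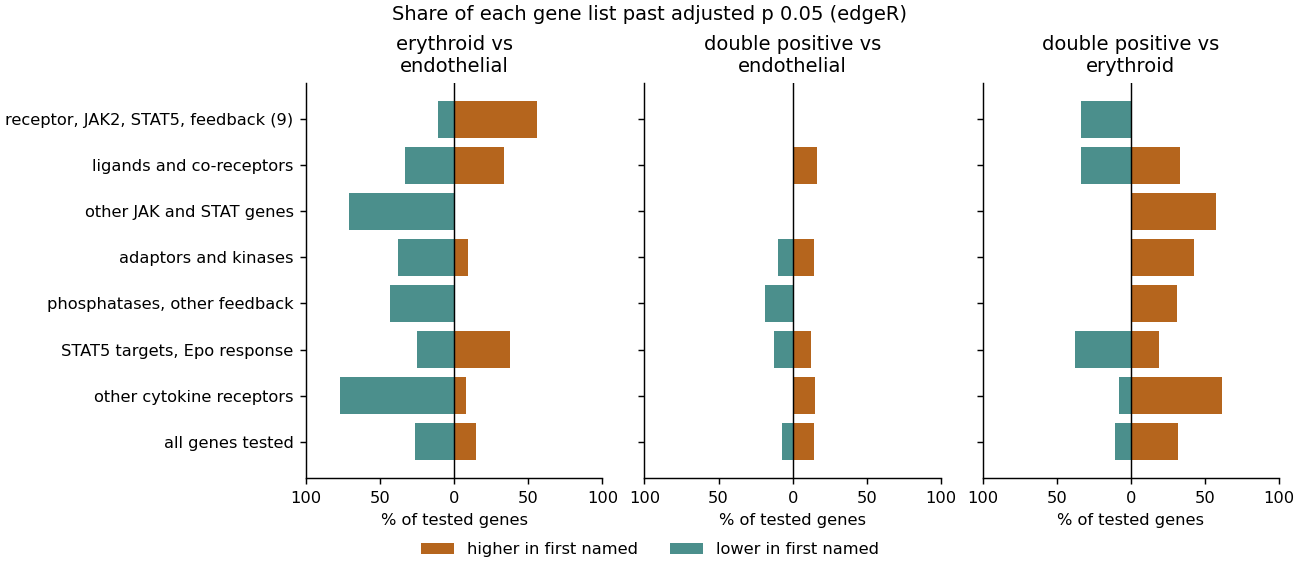
Share of the tested genes of each list that passed an adjusted p under 0.05 by edgeR, in percent, with genes higher in the first named population to the right and lower ones to the left. The bottom row gives all 12136 tested genes. Other cytokine receptors show 10 of 13 genes lower in erythroid than in endothelial pools.

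Ligands and co-receptors came first. Epo itself had 0 counts in all 8 libraries, so it was not detectable at this depth, where a count of 0 allows up to 3 reads in a library. Kitl, the ligand of the progenitor receptor KIT, stood at 32.1 ± 1.61 CPM in double positive (SD, n = 2), 0 in erythroid and 40.4 ± 12.0 CPM in endothelial pools (SD, n = 3 each). Kit stood at 3.98 ± 1.58, 0 and 32.9 ± 24.3 CPM in the same populations. In erythroid against endothelial pools Kitl was at least 141-fold and Kit at least 115-fold lower, with 3 counts over the erythroid pools as the floor. Tfr2, which binds the erythropoietin receptor and iron-loaded transferrin, stood at 0.503 ± 0.44 CPM in double positive, 58.4 ± 12.2 CPM in erythroid and 0 in endothelial pools. It was at least 387-fold higher in erythroid than in endothelial pools (adjusted p = 7.49e-05, edgeR). Csf2rb, the common beta chain of the IL-3, IL-5 and GM-CSF receptors, stood at 7.34 ± 2.01, 163 ± 105 and 10.3 ± 11.9 CPM, and was higher in erythroid than in endothelial pools by 3.99 on the log2 scale (adjusted p = 0.00574). Its copy Csf2rb2 is close in sequence, so the split of reads between them is uncertain. Of 6 tested genes in this list 2 rose and 2 fell in erythroid against endothelial pools, and 2 rose and 2 fell in double positive against erythroid pools. Scrib and Rnf41, which handle the receptor on its way to the surface, passed in neither.

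The other JAK and STAT genes were mostly lower in red cells. Of 7 tested, 5 fell in erythroid against endothelial pools, among them Jak1, Jak3, Tyk2 and Stat6, and none rose by edgeR at the adjusted or unadjusted threshold, by DESeq2 or by limma-voom. The list's median log2 difference was −2.20, against −0.36 for all tested genes. Jak1, the kinase of gp130 and interferon receptors, stood at 83.5 ± 3.06 CPM in double positive (SD, n = 2), 37.5 ± 11.4 in erythroid and 158 ± 40.7 in endothelial pools (SD, n = 3 each). Stat6, the factor of IL-4 signalling, stood at 41.4 ± 8.29, 9.28 ± 0.715 and 74.0 ± 10.9 CPM, with a log2 difference of −2.99 between erythroid and endothelial pools (adjusted p = 4.12e-05, edgeR). Stat3, which neighbours Stat5a, stood at 28.4 ± 3.66, 26.2 ± 16.5 and 57.5 ± 29.8 CPM and did not pass (adjusted p = 0.151 for erythroid against endothelial pools). In double positive against erythroid pools Jak1, Jak3, Tyk2 and Stat6 rose.

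Other receptors that signal through JAK2 or gp130 were also mostly lower in red cells. Of 13 tested, 10 fell and 1 rose in erythroid against endothelial pools, and their median log2 difference was −6.78. Setting the 6 genes at 0 in a population to their bound gave −4.73. In double positive against erythroid pools 8 of the 13 rose and 1 fell. Lifr, the leukemia inhibitory factor receptor gene, stood at 58.1 ± 8.35 CPM in double positive (SD, n = 2), 4.10 ± 1.94 in erythroid and 108 ± 36.5 in endothelial pools (SD, n = 3 each). Il6st, which encodes gp130, stood at 14.2 ± 2.84, 0.423 ± 0.733 and 49.5 ± 11.1 CPM. Ifngr1, an interferon gamma receptor chain gene, stood at 55.5 ± 1.53, 0.978 ± 1.69 and 100.2 ± 14.1 CPM. The riser was Csf2rb2, with the uncertainty named above, and it was not called under relative log expression (RLE) factors or library size alone. Ghr, the growth hormone receptor gene, stood at 118 ± 33.3, 0 and 33.6 ± 13.9 CPM, and Prlr, the prolactin receptor gene, at 51.5 ± 0.459, 0.544 ± 0.942 and 5.93 ± 2.48 CPM. These 2 of 13 were higher in double positive than in both other populations, against 1132 of all 12136 tested genes by edgeR. Their calls over endothelial pools ended under library size alone. The visceral endoderm sum was 99582 and 102099 CPM in double positive, 10.1 to 22.5 in erythroid and 52.6 to 159 in endothelial pools. Its part in Ghr and Prlr was not tested.

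Adaptors, kinases and phosphatases of the receptor came next. Of 21 adaptors and kinases 2 rose and 8 fell in erythroid against endothelial pools, with a median log2 difference of −1.93. Under library size alone 1 rose and 17 fell, with a median of −3.47. In double positive against erythroid pools 9 rose and 0 fell by edgeR. The count of lower genes there was 2 at an unadjusted p under 0.05, 0 with DESeq2 and 1 with limma-voom. Lyn, a SRC-family kinase tied to the receptor, stood at 21.4 ± 6.97 CPM in double positive (SD, n = 2), 0.932 ± 1.61 in erythroid and 88.3 ± 11.8 in endothelial pools (SD, n = 3 each). Mapk3, which encodes the kinase ERK1, was lower in erythroid than in endothelial pools, at 13.2 ± 3.47 against 64.2 ± 12.1 CPM (log2 difference −2.28, adjusted p = 0.000231, edgeR). Irs2, an insulin receptor substrate gene, stood at 7.06 ± 2.69 CPM in double positive, 20.2 ± 3.02 in erythroid and 0 in endothelial pools. Of 16 phosphatases and other feedback genes 7 fell in erythroid against endothelial pools and none rose by edgeR, with 1 higher at an unadjusted p under 0.05, 0 with DESeq2 and 1 with limma-voom. Under library size alone 11 fell. In double positive against erythroid pools 5 rose and 0 fell by edgeR, with 1 lower at an unadjusted p under 0.05. There 8 rose under library size alone. Ptpn6, the SHP-1 phosphatase gene that turns off JAK2 at the receptor, stood at 12.2 ± 5.17, 0 and 90.8 ± 72.5 CPM. Inpp5d, the SHIP1 gene, stood at 2.90 ± 1.94, 0 and 42.8 ± 15.9 CPM. Both are expressed by macrophages, whose marker sum in endothelial pools was 1186 to 3113 CPM, and the part of those cells in these levels was not tested. Socs1, an inhibitor of JAK kinases, was low, at 1.77 ± 0.199, 0 and 2.89 ± 0.361 CPM.

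Genes known as STAT5 targets or erythropoietin responders split. Of 16 tested, 6 rose and 4 fell in erythroid against endothelial pools, and 3 rose and 6 fell in double positive against erythroid pools. Those lower in erythroid than in endothelial pools were Id1, Podxl, Pim2 and Ddit4, and under library size alone 8 were lower. In double positive against erythroid pools library size alone gave 5 higher and 5 lower. The median log2 difference in erythroid against endothelial pools was −0.25, against −0.36 for all tested genes. Bcl2l1, which encodes the survival protein BCL-XL, stood at 16.7 ± 3.43 CPM in double positive (SD, n = 2), 199 ± 17.6 in erythroid and 40.8 ± 11.4 in endothelial pools (SD, n = 3 each). It was lower in double positive than in both other populations, by 3.57 on the log2 scale against erythroid pools (adjusted p = 6.01e-05, edgeR) and by 1.29 against endothelial pools (adjusted p = 0.0143). Myc was the other gene of this list below both, at 12.6 ± 1.82, 83.3 ± 23.6 and 55.8 ± 2.56 CPM. These are 2 of 16 tested genes of the list, against 194 of all 12136 tested genes below both by edgeR. The list count below both was 3 with DESeq2 and 1 with limma-voom, against 340 and 133 of all tested genes. Ccnd3, a D-type cyclin gene, stood at 95.6 ± 13.3, 1377 ± 132 and 129 ± 35.1 CPM, and Gfi1b, an erythroid repressor gene, at 11.03 ± 3.43, 194 ± 37.2 and 0.529 ± 0.916 CPM. Tfrc, the transferrin receptor gene, stood at 114 ± 19.9, 424 ± 50.5 and 38.0 ± 7.16 CPM. Fam132b, the gene of the hormone erythroferrone, and Osm, a cytokine gene, were too low to be tested.

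Genes whose pattern over the 8 libraries was most like that of Epor were ranked by Pearson's correlation of log2 CPM among 3771 genes with at least 50 CPM in 1 population. They were Eif2ak1, the heme-regulated kinase of translation initiation (r = 0.993), Ncapg2, a condensin subunit gene (0.988), Asf1b, a histone chaperone gene (0.985), Tssc1 (0.985) and Ogdh, a citric acid cycle enzyme gene (0.983). Eif2ak1 stood at 27.5 ± 2.24 CPM in double positive (SD, n = 2), 358 ± 56.8 in erythroid and 28.4 ± 12.4 CPM in endothelial pools (SD, n = 3 each). The correlations share the same libraries and depths, and the erythroid pools stand apart from the other 5 for Epor. For Socs3 the closest gene was Tk1, with r = 0.735 over the 8 libraries.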

How the data were processed

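The authors deposited a table of raw counts, 1 row per gene symbol and 1 column per library. Per the labels, polyadenylated RNA was amplified by Smart-seq2 with 14 PCR cycles and without molecular identifiers, so floors cover counting error only. The submitters' processing notes name FastQC, HTSeq and mm10; the sources used here do not give versions, the aligner, the annotation or the strand setting.

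Libraries were grouped by sorting gate, and no 2 held identical counts. Genes were kept by edgeR's filterByExpr (minimum count 10) and scaled by TMM. A robust quasi-likelihood fit took all 8 libraries, with population as its only term (R 4.3.3, edgeR 4.0.16; python 3.11.15), and calls needed an adjusted p under 0.05 (Benjamini-Hochberg over 12136 genes, two-sided). The SE is the log2 difference divided by the square root of the test's F. Alternatives used DESeq2 1.42.0, limma 3.58.1 (voom), other scalings, other filters and left-out libraries. The procedure was tested on simulated data. Most genes there had the same mean in all populations, so that test does not bear on the choice of scaling. A population at 0 was set to 3 counts over its libraries for a bound.

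The members and gene lists were chosen with earlier results of these data known. All members are named; in each list the text draws on up to 5 genes with the smallest adjusted p and a fixed set (Epo, Kitl, Kit, Jak1, Stat3, Socs1, Bcl2l1, Il6st, Ptpn6, Tfrc), and names further genes only after their values were seen. Some genes that this rule would name are not reported here.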

Additional observations from a re-analysis of the deposited data

How the results depend on the processing

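No paired analysis was possible because the populations share no replicate numbers. For erythroid against endothelial pools, 6 members were called, and 2 with library size alone, where all genes called numbered 7690 against 4977 under TMM; without 1 library it was 5 to 6 members and 4198 to 4692 genes. For double positive against endothelial pools, 0 members were called, 1 with limma-voom, 1 with only these populations in the fit and 0 to 1 without 1 library. All genes called there, 2616, became 977 to 2892 without 1 library, the lowest without replicate 8 and 1057 without replicate 7. For double positive against erythroid pools, 3 members became 1 to 4, and 5103 genes became 2924 to 5193, without 1 library. The count ratios kept their direction with 1 count added. Without 1 library the Stat5a to Stat5b difference of double positive from erythroid pools ran from −0.35 to 0.15, that of double positive from endothelial pools from −1.21 to −0.13 and that of erythroid from endothelial pools from −1.11 to −0.028.

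Directions that turned belonged to differences that had not passed, except Jak2. Library size alone gave −0.34 for Jak2, −0.30 for Stat5a and −0.79 for Cish in erythroid against endothelial pools, −0.29 for Jak2, −0.25 for Stat5a and −0.62 for Socs2 in double positive against endothelial pools, and 0.052 for Jak2, 0.054 for Stat5a, 0.25 for Stat5b and 0.0044 for Socs3 in double positive against erythroid pools. The Socs3 difference of erythroid from endothelial pools was 0.20 with limma-voom. Socs2, near 0 between double positive and endothelial pools, was −0.13 with DESeq2, −0.12 with relative log expression (RLE) factors, −0.12 with globin genes removed and −0.0075 at a minimum count of 50. Without 1 library Socs3 ran from −1.39 to 1.83 in erythroid against endothelial pools. In double positive against endothelial pools the ranges without 1 library were −0.84 to 0.083 for Epor, −0.11 to 0.21 for Socs2, −2.59 to 0.88 for Socs3 and −0.28 to 0.089 for Pim1. The cause was not tested. Stat5a, Socs3 and Pim1 were not tested at a minimum count of 50. With 5 to 9 reads in each double positive and endothelial library, Pim1 is limited by depth, and pools of 24 and 25 cells limit every member.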
